A study of Mus musculus with 2 samples.

Results

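The WNT ligands, their receptors and the secreted proteins that modulate them were followed across the cells of mouse omental tumors. The members were all genes of the deposited feature list whose symbol is that of a Wnt, Frizzled (Fzd), secreted Frizzled-related protein (Sfrp), Dickkopf (Dkk) or R-spondin (Rspo) gene, together with Lrp5, Lrp6, Ror1, Ror2, Wif1, Axin2, Lgr4 and Lgr5. This gave 49 genes of 32285, namely 19 Wnt, 10 Fzd, 4 Sfrp, 4 Dkk and 4 Rspo genes and the 8 genes named singly. Each member was described by cell class.

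Both groups were tumors of the KPCA mouse line, which the labels describe as fallopian tube epithelial cells and which serves as a model of high-grade serous ovarian cancer, grafted into the peritoneal cavity of immunocompetent C57BL/6J mice of 12 to 16 weeks. KPCA.FSTKO cells are a clone from which the follistatin gene Fst was deleted, and KPCA.FSTKO_hFSTL3 cells are 1 stable clone made from them by transfection of a plasmid for human FSTL3 under geneticin selection. Thus both groups lack Fst in the grafted cells, both keep Fst in the host, and they differ by the transgene, the selection and the clone, which cannot be told apart here. Tumors were taken at day 10 after the graft and 4 tumors were pooled into 1 library per genotype, so no value below has a replicate check, no test between the genotypes was made, and the number of members past a size describes these libraries alone.

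WNT ligands are secreted lipid-modified proteins that bind Frizzled receptors on the same or on neighbouring cells. With the coreceptors Lrp5 and Lrp6 they stabilise β-catenin, which joins the TCF/LEF factors on DNA and drives targets such as Axin2, itself an inhibitor of the pathway, whereas Ror1 and Ror2 are receptor tyrosine kinases that bind Wnt5a and take part in β-catenin-independent signalling. R-spondins act through Lgr4 and Lgr5 and keep Frizzleds at the cell surface. Sfrp proteins and Wif1 bind the ligands outside the cell, and Dkk1, Dkk2 and Dkk4 bind Lrp5 and Lrp6. In the female reproductive tract and in the mesothelium WNT signals are best known for their part in development, with Wnt4 and Wnt7a required for the Müllerian duct.

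The promoters of 3 members with a higher level in stromal than in cancer cells are printed, those of Ror1 and Fzd1 as windows that hold the letters searched and that of Axin2 as a pathway target whose window does not. Each sequence is the 250 bases before the RefSeq start of the gene in GRCm38.p6, written 5′ to 3′ on the strand of the gene, and capitals mark CTTTGA or its reverse complement TCAAAG, the core letters to which TCF/LEF factors bind. The stretch of Ror1, a WNT5A receptor, lies at chr4:100095541-100095790 on the plus strand. That of Fzd1, a Frizzled, lies at chr5:4758217-4758466 on the minus strand, and that of Axin2 lies at chr11:108920099-108920348 on the plus strand.
Ror1: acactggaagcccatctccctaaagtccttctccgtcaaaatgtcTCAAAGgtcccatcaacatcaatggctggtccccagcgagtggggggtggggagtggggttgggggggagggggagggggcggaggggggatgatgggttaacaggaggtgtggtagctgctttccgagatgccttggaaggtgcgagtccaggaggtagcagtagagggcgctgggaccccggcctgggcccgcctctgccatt
Fzd1: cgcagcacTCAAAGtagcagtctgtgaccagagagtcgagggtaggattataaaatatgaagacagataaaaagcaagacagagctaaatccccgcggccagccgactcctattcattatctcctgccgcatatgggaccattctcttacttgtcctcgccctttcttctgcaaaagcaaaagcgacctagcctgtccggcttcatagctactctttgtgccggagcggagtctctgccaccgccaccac
Axin2: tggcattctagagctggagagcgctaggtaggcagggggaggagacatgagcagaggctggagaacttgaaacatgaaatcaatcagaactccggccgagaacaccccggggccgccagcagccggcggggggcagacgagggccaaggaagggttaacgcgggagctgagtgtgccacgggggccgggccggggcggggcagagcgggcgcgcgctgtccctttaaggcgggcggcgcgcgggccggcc
In Ror1 the match began 205 bases before the start and in Fzd1 242 bases before it. The window of Axin2 held no such letters, which says nothing on whether a TCF/LEF factor acts on this gene. Of 32851 promoters of this length, 4544 (13.8%) held the letters on either strand. A promoter was given for 32 members, of which 5 held them, namely Dkk1, Fzd1, Ror1, Wnt11 and Wnt5b. Of the 11 members with a promoter that were higher in stroma of KPCA.FSTKO 3 held them, and the windows of Sfrp2, Wnt2 and Ror2, with gaps wider than that of Fzd1, held none. All 49 members were found by identifier in the GENCODE vM21 annotation of GRCm38, where Ror1 spans chr4:100095791-100444765, Fzd1 chr5:4753839-4758035, Axin2 chr11:108920349-108950783, Wnt4 chr4:137277489-137299726 and Wnt7b chr15:85535437-85582473. Ror1 and Wnt2b each overlap a gene without a common name on the same strand, so reads of these pairs may be shared.

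After removal of barcodes with a mitochondrial share of 20% or more or with at most 200 or at least 8000 genes, 6777 KPCA.FSTKO and 4041 KPCA.FSTKO_hFSTL3 cells remained, with medians of 17253 and 15071 unique molecular identifiers (UMIs, 1 per captured transcript). Over all deposited barcodes the members took 0.0603% and 0.0428% of the UMIs. The libraries share 12 barcodes, 10 of them among the cells kept. Cells were classed by the summed UMIs of marker genes, and barcodes that passed several gates were set aside. Each class is called "-like", since a gate cuts a range: 798 KPCA.FSTKO and 158 KPCA.FSTKO_hFSTL3 cells lay within a factor of 1.5 of the cancer gate, and 363 and 67 of the fibroblast gate. Cancer-like cells numbered 4009 and 230 (median 26518 and 42053 UMIs), fibroblast-like cells 387 and 49 (17127 and 24536 UMIs), and macrophage-like cells 767 and 112. In KPCA.FSTKO 34 pericyte-like and 98 endothelial-like cells were present, against 5 and 8. Most cancer-like cells lay in clusters 1, 3, 4 and 6 in both libraries. Cluster 7 held 87.3% of the fibroblast-like cells of KPCA.FSTKO and 98.0% of those of KPCA.FSTKO_hFSTL3, and 24 of KPCA.FSTKO lay in cluster 1. A feature of the KPCA.FSTKO_hFSTL3 library touches every comparison between genotypes: 3041 of its cells (75.2%) passed both the cancer and the pancreatic acinar gate, against 12 in KPCA.FSTKO. In these barcodes the fibroblast list reached 1823 CPM (UMIs of a gene per 1000000 UMIs of the cells), the macrophage list 2931 CPM and the erythroid list 3576 CPM, against 393.5, 77.7 and 49.5 CPM in the cancer-like cells of the same library, with no listed marker of these cell types at 0. They were left out of the cancer-like class, and their values are given beside the results they touch. Differences remained in the cells used. The median mitochondrial share of kept cells was 3.54% in KPCA.FSTKO and 10.7% in KPCA.FSTKO_hFSTL3. The acinar list was at 32.6 and 422.8 CPM in their cancer-like cells and at 60.9 and 614.1 CPM in their fibroblast-like cells. The part of either in the comparisons between genotypes was not tested.

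Levels below are CPM of the UMIs summed over the cells of a class, with exact Poisson 95% intervals in brackets, and ratios carry exact conditional binomial 95% intervals; all intervals cover counting error only. Because the kit counts 3′ ends and levels were not set per length, a gene was compared with itself across cells and not with other genes. A member was called higher or lower in a comparison where the cells compared held at least 100 of its UMIs and the CPM ratio was at least 2.

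Over both libraries 31 members had at least 100 UMIs. Of these, 28 reached that number within the 8 classes of KPCA.FSTKO with at least 30 cells, and fibroblast-like cells held the highest level of 15. Their interval lay apart from that of the next class for 14. Of 14042 genes with as many UMIs, 10.5% had their highest level in fibroblast-like cells. Cancer-like cells held the highest level of 4 members (17.6% of genes), pericyte-like cells of 4 (14.0%), endothelial-like cells of 2 (14.9%), macrophage-like cells of 2 (7.76%) and neutrophil-like cells of 1 (13.8%), namely Fzd5 with 3 UMIs there. T and NK-like and erythroid-like cells led for no member.

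**Figure D1:**
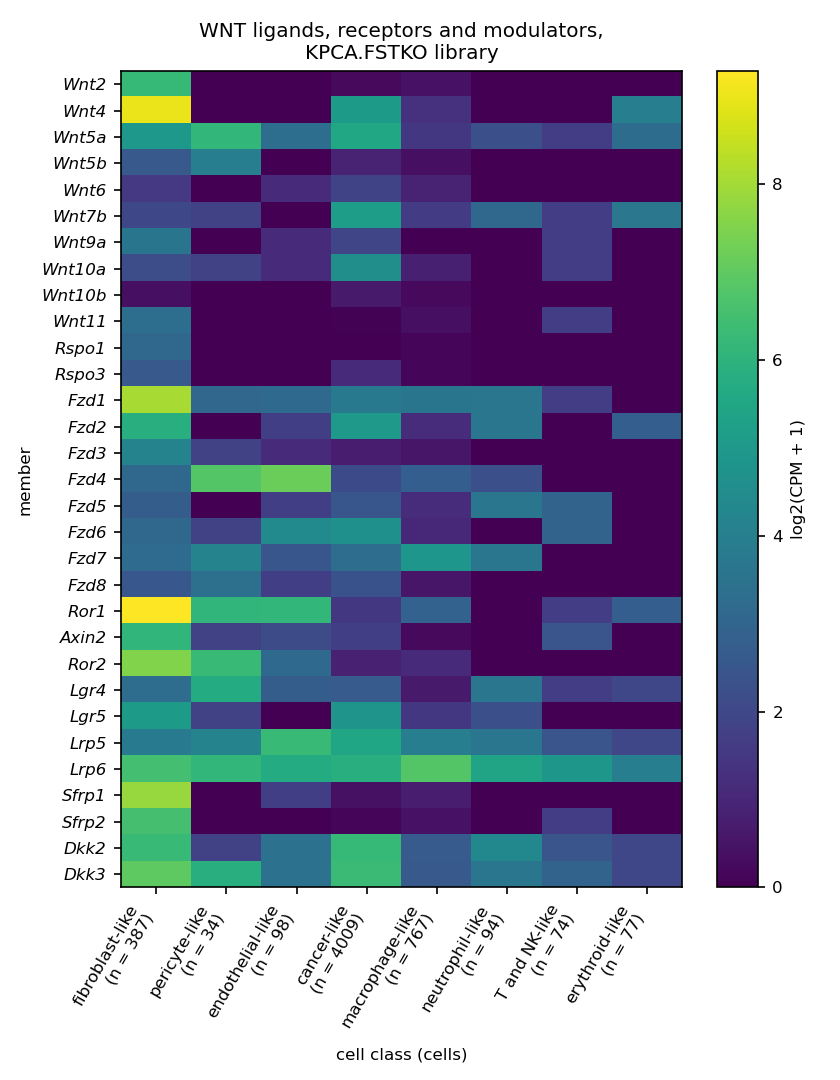
Level of the 31 members with at least 100 UMIs (rows) in the 8 KPCA.FSTKO classes with at least 30 cells (columns), as log2(CPM + 1) on the colour scale. Higher levels are brighter. Wnt4, Ror1, Fzd1, Sfrp1 and Ror2 are brightest in fibroblast-like cells, Wnt7b and Wnt10a in cancer-like cells and Fzd4 in pericyte-like and endothelial-like cells.

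Some ligands lay on the stromal and some on the cancer side, while others, such as Wnt5a, lay on neither. Wnt4, a ligand needed for the female reproductive tract, was at 510 CPM [493-527] in fibroblast-like cells of KPCA.FSTKO and at 641 CPM [600-684] in those of KPCA.FSTKO_hFSTL3. In cancer-like cells it was at 32.4 CPM [31.3-33.5] and 10.9 CPM [8.90-13.2]. Fibroblast-like cells therefore exceeded cancer-like cells in either library, with no overlap of the intervals. Wnt4 was near 0 in KPCA.FSTKO macrophage-like cells (1.53 CPM, 16 UMIs), and no UMI was counted in 34 pericyte-like or 98 endothelial-like cells.

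Wnt2, which is known from mesenchyme, showed the same side more sharply. Its level was 74.0 CPM in fibroblast-like cells of KPCA.FSTKO and 98.7 CPM in those of KPCA.FSTKO_hFSTL3, against 0.188 CPM (21 UMIs) and 0.314 CPM (3 UMIs) in cancer-like cells. Wnt9a was at 11.1 and 14.8 CPM in fibroblast-like cells and at 2.83 and 4.19 CPM in cancer-like cells. Wnt11, a ligand tied to β-catenin-independent signalling, was at 9.11 and 15.5 CPM in fibroblast-like cells from 63 and 22 UMIs, and 3 UMIs were counted in the cancer-like cells of each library. Of these ligands Wnt11 had too few UMIs for the size rule in both libraries and Wnt9a in KPCA.FSTKO_hFSTL3.

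The opposite side was held by Wnt7b and Wnt10a, ligands known from epithelia that act through β-catenin. Wnt7b was at 34.7 CPM [33.6-35.8] in cancer-like cells of KPCA.FSTKO and at 61.5 CPM [56.6-66.7] in those of KPCA.FSTKO_hFSTL3, against 3.04 and 2.82 CPM in fibroblast-like cells. Wnt10a was at 23.1 and 20.5 CPM in cancer-like cells and at 3.62 CPM in fibroblast-like cells of KPCA.FSTKO. In the 49 fibroblast-like cells of KPCA.FSTKO_hFSTL3 no Wnt10a UMI was counted, which allows up to 2.12 CPM.

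Wnt5a, the main ligand of Ror receptors, was shared between compartments. It was at 46.0 CPM in cancer-like, 29.8 CPM in fibroblast-like and 70.4 CPM in pericyte-like cells of KPCA.FSTKO, the last from 29 UMIs with an interval that overlapped that of cancer-like cells. In KPCA.FSTKO_hFSTL3 the same classes were at 29.7, 36.7 and 139 CPM, with 20 UMIs in 5 pericyte-like cells. Its close relative Wnt5b had 5.06 CPM in the fibroblast-like and 0.876 CPM in the cancer-like class of KPCA.FSTKO. Wnt6 was low throughout, with 2.75 CPM in the cancer-like and 1.88 CPM in the fibroblast-like class of KPCA.FSTKO. In KPCA.FSTKO_hFSTL3 these classes held 0.105 and 1.41 CPM of Wnt6 and 0.838 and 9.17 CPM of Wnt5b. Wnt10b had 109 UMIs in all and stayed under 1 CPM in both classes of KPCA.FSTKO.

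Among the Frizzleds, Fzd1 stood on the stromal side. It was at 267 CPM (KPCA.FSTKO) and 272 CPM (KPCA.FSTKO_hFSTL3) in fibroblast-like cells and at 12.5 and 13.0 CPM in cancer-like cells, so the 2 libraries gave nearly the same pair of values. Fzd3, a Frizzled known from axon guidance and planar polarity, was at 16.8 and 23.3 CPM against 0.626 and 1.26 CPM. Fzd2 was present in both compartments, at 55.5 and 58.5 CPM in fibroblast-like and 31.0 and 30.2 CPM in cancer-like cells. Fzd6 leaned to cancer-like cells, at 24.1 and 28.5 CPM against 7.52 and 4.23 CPM in fibroblast-like cells.

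Fzd4, the receptor of Norrin in retinal vessels, marked vascular cells instead. It was at 145 CPM in endothelial-like and 112 CPM in pericyte-like cells of KPCA.FSTKO, with overlapping intervals, and at 7.81 CPM in fibroblast-like and 3.29 CPM in cancer-like cells. The 8 endothelial-like and 5 pericyte-like cells of KPCA.FSTKO_hFSTL3 gave 170 and 139 CPM. Fzd7 had its highest level in macrophage-like cells of KPCA.FSTKO, at 28.3 CPM, but its interval overlapped that of the 7 UMIs in pericyte-like cells (17.0 CPM). Fzd5 and Fzd8 stayed at 5.64 and 4.77 CPM in fibroblast-like and 4.60 and 4.10 CPM in cancer-like cells of KPCA.FSTKO. In fibroblast-like cells of KPCA.FSTKO_hFSTL3 Fzd4 was at 9.87, Fzd5 at 3.52, Fzd7 at 10.6 and Fzd8 at 11.3 CPM, and in its cancer-like cells they were at 2.83, 5.76, 7.22 and 8.06 CPM. These 4 Frizzleds thus stayed low in both compartments of both libraries.

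Of the coreceptors, Lrp6 was the most evenly spread. It was at 111 CPM in macrophage-like, 89.8 CPM in fibroblast-like and 56.7 CPM in cancer-like cells of KPCA.FSTKO. The same 3 classes of KPCA.FSTKO_hFSTL3 gave 132, 82.5 and 49.6 CPM. Lrp5 was at 75.2 CPM in endothelial-like cells of KPCA.FSTKO, apart from its 43.7 CPM in cancer-like cells, and at 13.4 CPM in fibroblast-like cells. In KPCA.FSTKO_hFSTL3 cancer-like cells held 28.0 CPM of Lrp5 and fibroblast-like cells 7.76 CPM, the same order. The Wnt5a receptors were stromal. Ror1 was at 623 CPM [605-642] in fibroblast-like cells of KPCA.FSTKO and 620 CPM [580-663] in those of KPCA.FSTKO_hFSTL3, and at 1.83 and 2.30 CPM in cancer-like cells. Ror2 was at 183 and 235 CPM against 0.795 and 0.419 CPM, and at 75.3 CPM in pericyte-like cells of KPCA.FSTKO.

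The R-spondins were few in UMIs. Rspo1 was at 7.81 CPM (54 UMIs) in fibroblast-like cells of KPCA.FSTKO, with 2 UMIs in all cancer-like cells of each library. Rspo3 was at 5.06 CPM (35 UMIs) in fibroblast-like and 1.23 CPM in cancer-like cells of KPCA.FSTKO. Fibroblast-like cells of KPCA.FSTKO_hFSTL3 gave 7.05 CPM of Rspo1 and 5.64 CPM of Rspo3, from 10 and 8 UMIs. Rspo1 had too few UMIs for the size rule in both libraries, and Rspo3 in KPCA.FSTKO_hFSTL3. Their receptor Lgr4 was at 51.0 CPM in pericyte-like cells from 21 UMIs and at 8.97 CPM in fibroblast-like and 5.29 CPM in cancer-like cells, for which KPCA.FSTKO_hFSTL3 gave 10.6 and 9.63 CPM. Lgr5, a stem cell marker of intestine and ovary surface, was nearly even between fibroblast-like and cancer-like cells of KPCA.FSTKO, at 32.2 and 27.1 CPM, and at 43.0 and 9.84 CPM in KPCA.FSTKO_hFSTL3.

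Secreted inhibitors differed by family. The Sfrp genes, which bind ligands, were stromal: Sfrp1 was at 230 CPM [219-242] in fibroblast-like cells of KPCA.FSTKO and 99.4 CPM in those of KPCA.FSTKO_hFSTL3, against 0.340 and 0.733 CPM in cancer-like cells. Sfrp2 was at 92.3 and 54.3 CPM against 0.107 and 0.419 CPM. These UMIs were concentrated in few cells, since 10 cells held 36.8% of all Sfrp1 and 37.6% of all Sfrp2 UMIs of the KPCA.FSTKO library, against 8.16% for Wnt4 and 12.1% for Ror1. The Dkk genes were present on both sides. Dkk3, the divergent family member, was at 126 and 63.5 CPM in fibroblast-like and 78.5 and 46.2 CPM in cancer-like cells. Dkk2 was at 76.5 and 73.0 CPM in fibroblast-like and cancer-like cells of KPCA.FSTKO, with overlapping intervals, and at 22.6 and 45.4 CPM in KPCA.FSTKO_hFSTL3.

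Axin2, the target most often read as a sign of β-catenin activity, was stromal as well, at 67.4 CPM (KPCA.FSTKO) and 58.5 CPM (KPCA.FSTKO_hFSTL3) in fibroblast-like cells and 2.26 and 1.99 CPM in cancer-like cells. In the other classes of KPCA.FSTKO that were ranked Axin2 was at most at 4.50 CPM, from 2 UMIs in T and NK-like cells.

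Which members lie on the stromal and which on the cancer side was then compared within each library, where both kinds of cell share 1 preparation. Stromal cells here are fibroblast-like and pericyte-like cells together, 421 in KPCA.FSTKO and 54 in KPCA.FSTKO_hFSTL3. In KPCA.FSTKO 28 members had enough UMIs, of which 14 were higher in stromal than in cancer-like cells, 4 were lower and 10 were neither. Of all 13401 genes past the same UMI minimum 15.0% stood higher and 15.7% lower. The median log2 ratio of the members was 0.93, against -0.11 over all genes.

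Among the members with enough UMIs the widest gaps were those of Sfrp2 (812-fold, 462 to 1580), Sfrp1 (640-fold, 464 to 908), Wnt2 (372-fold, 241 to 607), Ror1 (323-fold, 281 to 373) and Ror2 (223-fold, 180 to 279.5). The counts behind the lower side were 12 UMIs of Sfrp2, 38 of Sfrp1 and 21 of Wnt2 in 4009 cancer-like cells. Axin2 (28.2-fold), Fzd3 (25.5-fold), Fzd1 (20.1-fold) and Wnt4 (14.9-fold) followed, then Wnt5b (6.39-fold), Fzd4 (4.15-fold), Rspo3 (3.87-fold), Wnt9a (3.71-fold) and Lgr4 (2.14-fold). Thus, of the members with enough UMIs, the ligand Wnt2, both Ror receptors and the 2 abundant Sfrp genes showed the 5 widest gaps, while Wnt4 had a clear level in both. Rspo1 (412-fold, 109 to 3492) and Wnt11 (321-fold, 105 to 1597) also had wide gaps, from too few UMIs for the rule. Without the 5% of cells with most UMIs of each gene the log2 ratio of Axin2 went from 4.82 to 8.15, and Wnt5b, Rspo3, Wnt9a and Fzd3 no longer had enough UMIs. By construction this setting takes away most UMIs of a gene found in few cells, and Axin2 had 253 UMIs in the 4009 cancer-like cells. The wider Axin2 gap and these losses are therefore not read as a result. The call of Lgr4 was lost with fibroblast-like cells alone (1.70-fold) and under 3 other alternatives, at 1.97 to 1.98-fold. Fibroblast-like cells held 54 of the 100 stromal UMIs of Fzd4. With these cells alone its log2 ratio went from 2.05 to 1.25, and its call was kept.

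Lower in stroma were Wnt7b (0.0866 times the cancer-like level, 0.0542 to 0.131), Wnt10a (0.154), Fzd6 (0.300) and Lrp5 (0.312). These are 2 ligands, a Frizzled and a coreceptor. The 10 members on neither side included Dkk2 (0.990, 0.905 to 1.08), Lgr5 (1.13, 0.982 to 1.29) and Fzd7 (0.980, 0.751 to 1.26), for which a gap of 2 times lay outside the interval. The ratio of Dkk2 depended on few cells, since without the 5% of cells with most of its UMIs its log2 ratio was -1.23, past the rule on the lower side.

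In KPCA.FSTKO_hFSTL3 18 members had enough UMIs, of which 8 were higher in stroma (12.2% of 8924 genes) and 5 lower (16.2%). The higher ones were Ror2 (536-fold, from 4 UMIs in cancer-like cells), Wnt2 (285-fold, 95.6 to 1400), Ror1 (247-fold), Sfrp1 (123-fold), Wnt4 (53.4-fold, 43.6 to 66.1), Axin2 (26.7-fold), Fzd1 (19.0-fold) and Lgr5 (3.97-fold, 2.83 to 5.53). The lower ones were Wnt7b (0.0417), Fzd6 (0.135), Lrp5 (0.298), Dkk2 (0.451) and Wnt10a, of which stroma held no UMI. Of the 18 members with enough UMIs in both libraries 7 were higher in both, 4 lower in both, 4 neither in both and 0 on opposite sides of the rule. The matching shares over all genes were not computed, so these counts are not read as particular to the members. Wnt5a was neither, but its stromal over cancer-like ratio was 1.55 (1.18 to 2.01) in this library and 0.698 (0.610 to 0.796) in KPCA.FSTKO. When barcodes that passed the acinar gate and 1 other gate were put into that other class, the cancer-like class of KPCA.FSTKO_hFSTL3 grew from 230 to 3271 cells and the Dkk2 ratio moved from 0.451 to the other side of 1, at a log2 of 0.061. That of Lrp5 went to 0.572 there, and that of Dkk2 to 0.525 with every barcode kept, so both calls were lost. The stromal gaps narrowed in the same setting, on the log2 scale from 9.07 to 4.43 for Ror2, 8.16 to 3.88 for Wnt2, 7.95 to 4.69 for Ror1, 6.94 to 3.97 for Sfrp1, 5.74 to 3.38 for Wnt4, 4.74 to 3.72 for Axin2 and 4.25 to 3.19 for Fzd1, and these 7 members stayed higher in stroma, as did Lgr5, whose gap widened. Without the 5% of cells with most UMIs of a gene, Wnt2, Sfrp1, Axin2, Lgr5 and Wnt10a no longer had enough UMIs.

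**Figure D2:**
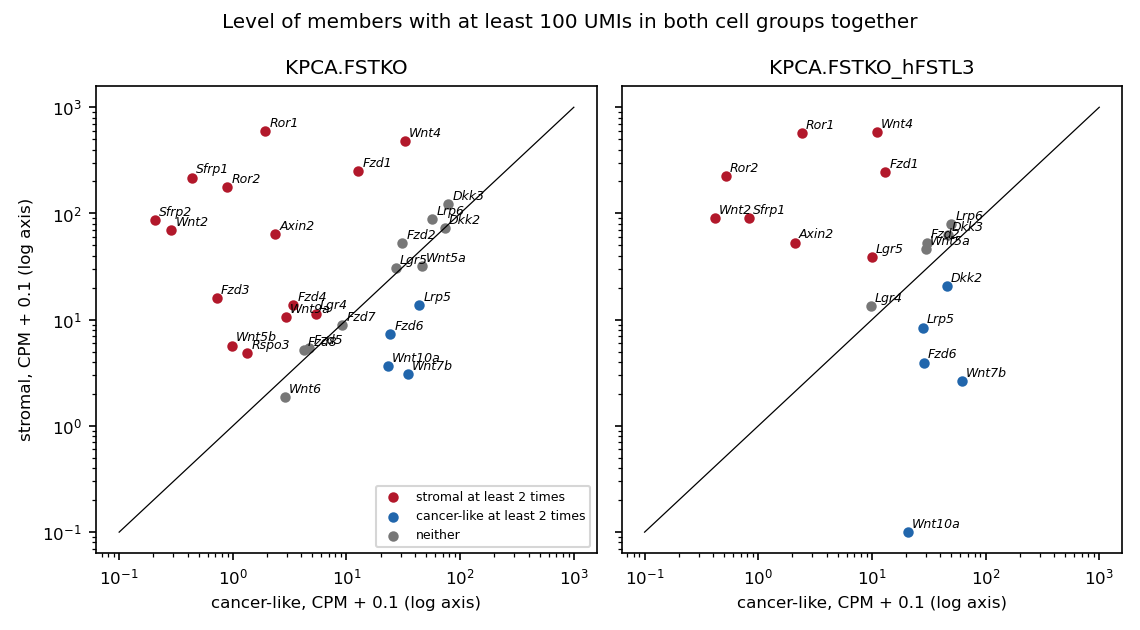
Level of each member in cancer-like cells (x axis, CPM + 0.1, log scale) against stromal cells (y axis, CPM + 0.1, log scale), with 1 panel per library. Ror1, Wnt4, Fzd1, Sfrp1 and Ror2 lie far above the line of equal levels and Wnt7b, Wnt10a, Fzd6 and Lrp5 below it in both panels.

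The share of cells with a UMI gave the same sides at equal depth. After each cell was thinned to 1000 UMIs, Wnt4 was found in 29.8% (25.2 to 34.7, Clopper-Pearson) of 376 fibroblast-like, 3.01% of 3921 cancer-like and 0.397% of 756 macrophage-like cells of KPCA.FSTKO, and Ror1 in 42.02%, 0.281% and 0.794%. Wnt7b was found in 0.532%, 3.47% and 0 of these cells, the last of which allows up to 0.487%. Macrophage-like cells were taken as the background for Wnt4 and Ror1, a choice that was not tested. The Ror1 share of cancer-like cells lay below theirs. Thinning left out 11 fibroblast-like, 88 cancer-like and 11 macrophage-like cells. Without thinning, at medians of 17127, 26518 and 12927 UMIs, the shares were 71.6%, 28.2% and 1.83% for Wnt4, 80.4%, 2.35% and 3.52% for Ror1 and 4.65%, 46.4% and 2.74% for Wnt7b.

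The other genes of the pathway were followed in a list of 53, of which 46 had enough UMIs for stromal against cancer-like cells of KPCA.FSTKO, with 11 higher (15.0% of all genes stood higher) and 5 lower (15.7%), and a median log2 ratio of 0.27. The share of the lower ones, 10.9%, was below that over all genes. Higher were the targets Tnfrsf19 (495-fold), Nkd2 (199-fold) and Nkd1 (137-fold), of which the Nkd genes are feedback inhibitors that bind Dishevelled, the glypican Gpc3 (171-fold) and Pygo1, a nuclear partner of β-catenin (78.1-fold). Of the 7 targets with enough UMIs 4 were higher in stroma and 1 lower, and the lower one was the cyclin gene Ccnd1 (0.109). Also lower were Rnf43, a ligase that removes Frizzleds from the surface (0.0868), Lgr6 (0.141), the polarity cadherin Celsr1 (0.151) and Porcn, which adds lipid to WNT ligands (0.441). None of the 12 cytoplasmic genes, such as Ctnnb1, Apc and Gsk3b, passed the rule in this library. In KPCA.FSTKO_hFSTL3 41 had enough UMIs, with 7 higher (12.2% of all genes) and 5 lower (16.2%). Higher were Nkd1 (115-fold), Tnfrsf19 (106-fold), Ptk7 (92.4-fold), Prickle1 (4.82-fold) and Kremen1 (3.97-fold), among others. The lower ones were Lgr6 (0.0195, 1 UMI in stroma), Celsr1 (0.0248, 1 UMI), Ccnd1 (0.103), the target Myc (0.311) and Axin1, a scaffold of the complex that degrades β-catenin (0.456).

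Fibroblast-like cells were not uniform in these genes. They were parted by contractile markers (70 and 19 cells in KPCA.FSTKO and KPCA.FSTKO_hFSTL3) and mesothelial markers (58 and 13 cells), with 259 and 17 others, and 77 and 7 cells lay near the contractile and 90 and 10 near the mesothelial cut. In KPCA.FSTKO 12 members had enough UMIs in the first 2 subsets, of which 3 were higher in contractile than in mesothelial-marked cells (5.38% of genes) and 1 was lower (5.08%). Sfrp1 was at 504 CPM in contractile, 58.3 CPM in mesothelial-marked and 181 CPM in other fibroblast-like cells, a ratio of 8.65 (6.43 to 11.9) between the first 2. Wnt2 was at 125, 38.4 and 65.5 CPM, and Dkk2 at 103, 48.4 and 73.7 CPM. All 3 were therefore lowest in the mesothelial-marked cells. Sfrp2 was lowest in contractile cells, at 44.8 CPM, against 91.8 CPM in mesothelial-marked and 106 CPM in other cells.

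The same order of contractile over mesothelial-marked cells was seen in KPCA.FSTKO_hFSTL3 for Sfrp1 (166 and 19.3 CPM), Wnt2 (128 and 41.8 CPM) and Dkk2 (49.9 CPM and 0 UMIs, which allows up to 9.64 CPM), and the reverse order for Sfrp2 (10.7 and 106 CPM). These orders rest on few UMIs, and the size rule was not applied to the subsets of this library. All its fibroblast-like cells together held 141 UMIs of Sfrp1, 140 of Wnt2, 77 of Sfrp2 and 32 of Dkk2. Ror1, Ror2, Axin2 and Lrp6 were on neither side in KPCA.FSTKO, with Ror1 at 618 and 728 CPM and Axin2 at 74.2 and 73.2 CPM. Wnt4 was at 500, 459 and 522 CPM in contractile, mesothelial-marked and other cells of KPCA.FSTKO, but at 290, 713 and 960 CPM in those of KPCA.FSTKO_hFSTL3, where the subsets hold 19, 13 and 17 cells. Among the other pathway genes Nkd2 (2.37-fold) and Ccnd2 (2.17-fold) were higher in contractile cells.

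**Figure D3:**
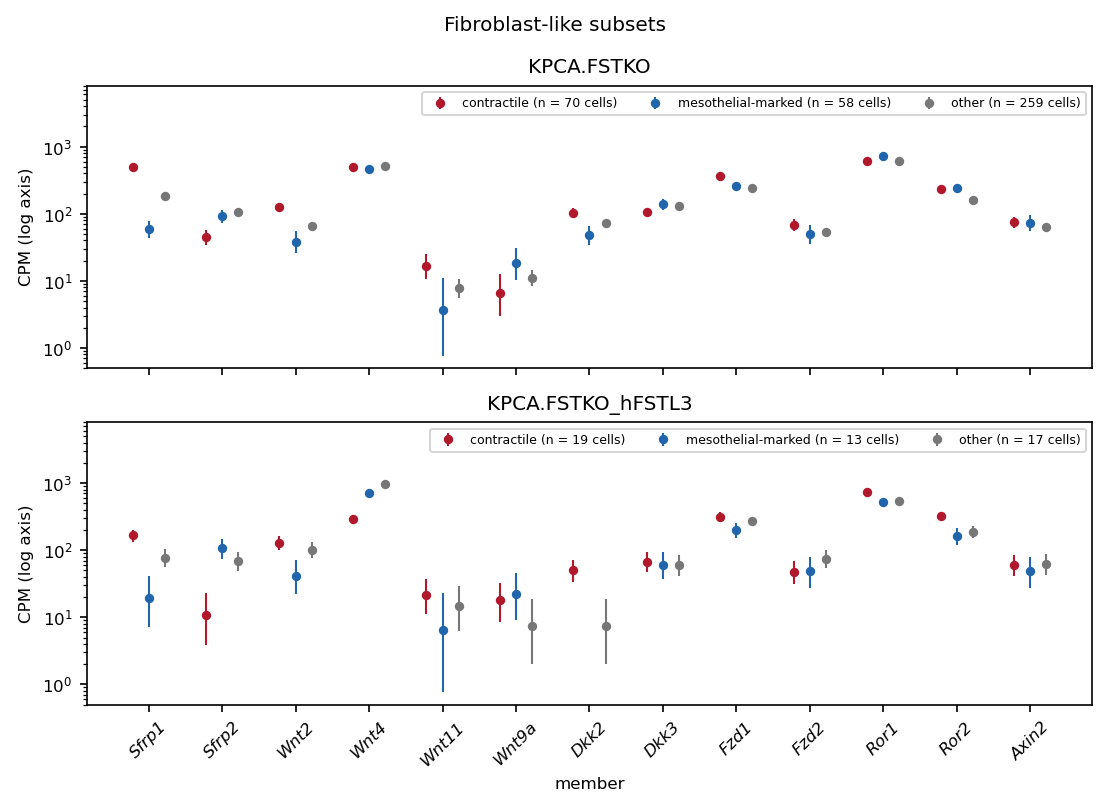
Level (CPM, log scale) of 13 members in contractile, mesothelial-marked and other fibroblast-like cells of each library, with exact Poisson 95% intervals as bars. Sfrp1, Wnt2 and Dkk2 are higher in contractile than in mesothelial-marked cells of both libraries, Sfrp2 is lower, and Dkk2 of mesothelial-marked KPCA.FSTKO_hFSTL3 cells, at 0 UMIs, is not drawn. The size rule was not applied to the KPCA.FSTKO_hFSTL3 subsets, which hold few UMIs.

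The study compared the genotypes to learn how hFSTL3 changes the tumor. In cancer-like cells 23 members had enough UMIs, of which 0 were higher in KPCA.FSTKO_hFSTL3 (3.20% of 13067 genes) and 4 were lower (7.19%), with a median log2 ratio of -0.18 against 0.01 over all genes. The lower ones were Wnt4 (32.4 to 10.9 CPM, 0.336 times, 0.274 to 0.409), Lgr5 (27.1 to 9.84 CPM, 0.364 times, 0.293 to 0.447), Wnt6 (2.75 to 0.105 CPM, 0.0380 times, 0.000960 to 0.213) and Rspo3 (1.23 to 0.105 CPM, 0.0849 times, 0.00213 to 0.481). The values of Wnt6 and Rspo3 rest on 1 UMI each in KPCA.FSTKO_hFSTL3. Wnt7b (1.77 times, 1.62 to 1.93), Fzd8 (1.97, 1.52 to 2.51) and Lgr4 (1.82, 1.45 to 2.27) lay above 1 with intervals apart from it, below the rule of 2 times. On the other side of 1 lay Dkk3 (0.588), Dkk2 (0.622), Lrp5 (0.639) and Wnt5a (0.647). Fzd1 (1.04), Fzd2 (0.973) and Axin2 (0.880, 0.521 to 1.40) were close to even.

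The 230 cancer-like cells of KPCA.FSTKO_hFSTL3 are 5.69% of its cells, and the 3041 barcodes that passed the cancer and the acinar gate held between 57.8% and 79.0% of the UMIs that each of the 28 members compared had in that library. The same barcodes held 53692538 of the 69751304 UMIs of its filtered cells, a larger share than for any of these members except Wnt7b and Wnt10a. In those barcodes Wnt4 was at 61.2 CPM, which is 1.89 times the KPCA.FSTKO cancer-like level, so the lower Wnt4 value is not found there: with these barcodes in the cancer-like class its log2 ratio was 0.73. The stromal members were higher in the same barcodes, with Ror1 at 25.6 CPM (13.96 times the KPCA.FSTKO cancer-like level), Ror2 at 11.8 CPM (14.8 times), Sfrp1 at 7.17 CPM (21.1 times) and Wnt2 at 7.003 CPM (37.3 times), beside the higher fibroblast list given above. The part of stromal RNA in the Wnt4 value was not tested. Lgr5 (5.61 CPM, 0.207 times), Wnt6 (0.335 CPM, 0.122 times) and Rspo3 (0.447 CPM, 0.362 times) were lower there too. So were members past no rule in the cancer-like cells, namely Dkk2 (0.218), Dkk3 (0.312), Wnt5a (0.321), Lrp5 (0.373), Fzd6 (0.475, against 1.18 in cancer-like cells) and Lrp6 (0.499), and Fzd2 was at 0.545 times, so a lower value in these barcodes was not particular to Lgr5, Wnt6 and Rspo3. Wnt7b was at 43.6 CPM (1.26 times, 1.19 to 1.32). Fzd8 (0.931 times, 0.786 to 1.10) and Lgr4 (0.993 times, 0.858 to 1.15), above 1 in the cancer-like cells, were close to even in these barcodes. Fzd1 (2.30 times, 2.14 to 2.47) and Axin2 (1.88 times, 1.56 to 2.255), close to even in the cancer-like cells, were above 1 in them. How many of all genes were as low or as high in these barcodes was not counted, so the lower and higher values there are not read as a result about the members.

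**Figure D4:**
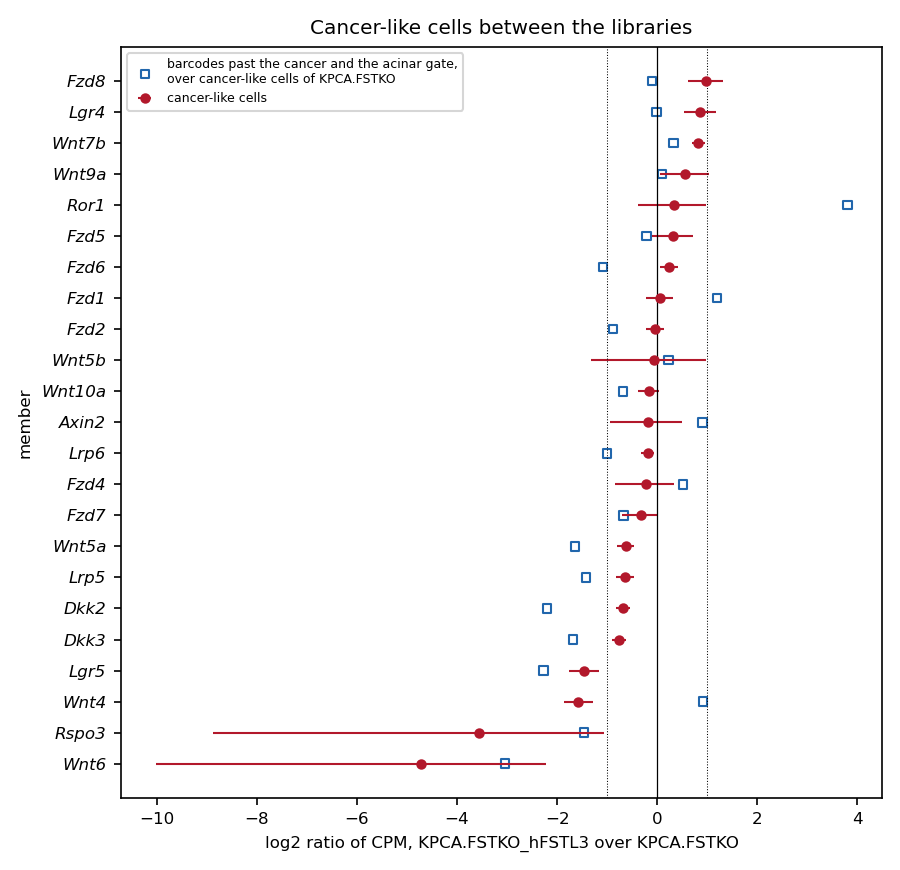
log2 ratio of each member's level in KPCA.FSTKO_hFSTL3 over KPCA.FSTKO cancer-like cells (circles, with exact 95% intervals), and of the barcodes that passed the cancer and acinar gates over KPCA.FSTKO cancer-like cells (squares). Lgr5, Wnt6 and Rspo3 lie below 0 in both, whereas Wnt4 lies below 0 in cancer-like cells and above 0 in the other barcodes.

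The cancer-like cells were also compared within each of their 4 main clusters. Wnt7b was higher in KPCA.FSTKO_hFSTL3 in all 4, at 69.2 against 37.9 CPM in cluster 1, 53.9 against 29.4 CPM in cluster 3, 68.0 against 38.0 CPM in cluster 4 and 61.9 against 31.8 CPM in cluster 6. Lgr5 was lower in each, from 41.2 to 24.5 CPM in cluster 1, 16.4 to 0.418 CPM in cluster 3, 19.6 to 4.46 CPM in cluster 4 and 18.5 to 2.21 CPM in cluster 6. In neither gene did the intervals of the libraries overlap in any of these clusters. Wnt4 was lower in cluster 1 (44.6 to 13.5 CPM) and cluster 3 (41.8 to 7.94 CPM), whereas the intervals overlapped in cluster 4 (20.7 and 14.5 CPM) and cluster 6 (13.5 and 11.6 CPM). Dkk3 was lower in all 4, for example 54.2 to 19.6 CPM in cluster 3. The clusters hold 70, 43, 19 and 36 cancer-like cells of KPCA.FSTKO_hFSTL3. In cluster 1 alone Lgr5 stayed within a factor of 2 (0.595 times).

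**Figure D5:**
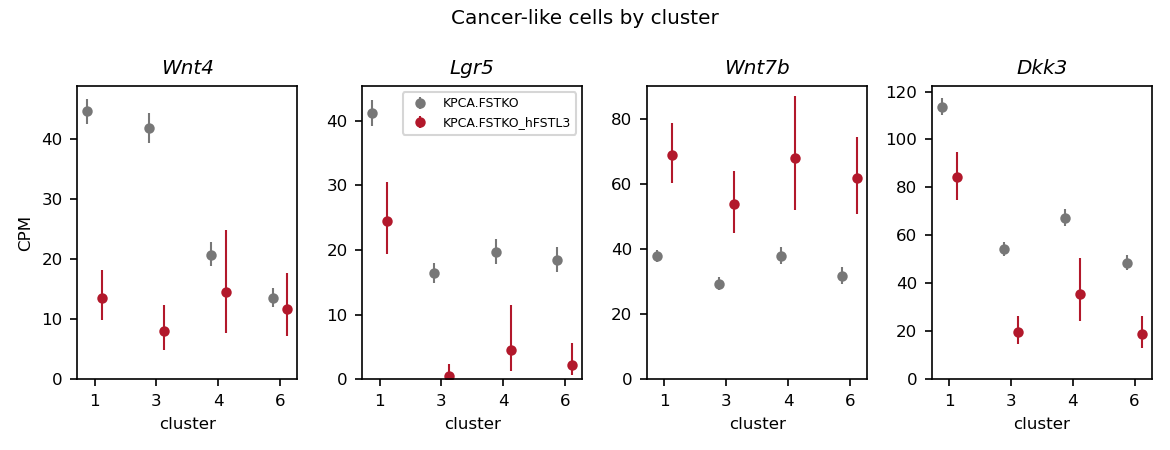
Level (CPM) of Wnt4, Lgr5, Wnt7b and Dkk3 in the cancer-like cells of clusters 1, 3, 4 and 6 in KPCA.FSTKO and KPCA.FSTKO_hFSTL3, with exact Poisson 95% intervals as bars. Wnt7b is higher and Lgr5 and Dkk3 are lower in KPCA.FSTKO_hFSTL3 in every cluster, while the intervals of Wnt4 overlap in clusters 4 and 6.

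In fibroblast-like cells 16 members had enough UMIs between the genotypes, of which 0 were higher in KPCA.FSTKO_hFSTL3 (1.40% of 8202 genes) and 2 were lower (3.30%), both inhibitors. Dkk2 was at 76.5 CPM in KPCA.FSTKO and 22.6 CPM in KPCA.FSTKO_hFSTL3 (0.295 times, 0.1996 to 0.422), and Sfrp1 at 230 and 99.4 CPM (0.432 times, 0.361 to 0.513). The other Sfrp and Dkk genes with enough UMIs leaned the same way, with Dkk3 at 0.506 times (0.402 to 0.629) and Sfrp2 at 0.588 times (0.458 to 0.746). This did not hold for every secreted inhibitor. Apcdd1, from the list of other pathway genes, was at 1.08 times with an interval that includes 1. Sfrp4 and Draxin lay above 1, from too few UMIs for the size rule. Of the ligands and receptors, Wnt2 (1.33 times, 1.10 to 1.61), Ror2 (1.28, 1.13 to 1.45) and Wnt4 (1.26, 1.17 to 1.35) lay above 1, and Ror1 (0.996, 0.925 to 1.07) and Fzd1 (1.02, 0.911 to 1.14) were close to it. The coreceptors Lrp5 (0.577 times, 0.278 to 1.08, from 11 UMIs in KPCA.FSTKO_hFSTL3) and Lrp6 (0.918, 0.747 to 1.12) lay below 1 with intervals that include it. Contractile cells made up 18.1% of fibroblast-like cells in KPCA.FSTKO and 38.8% in KPCA.FSTKO_hFSTL3. Sfrp1 and Dkk2 were lower in KPCA.FSTKO_hFSTL3 within contractile cells (504 to 166 CPM and 103 to 49.9 CPM), within mesothelial-marked cells and within the others. These subset values rest on few UMIs, since all fibroblast-like cells of KPCA.FSTKO_hFSTL3 held 141 Sfrp1 and 32 Dkk2 UMIs. Whether the contractile share has a part in the lower values was not tested. The call of Sfrp1 was lost without the 5% of cells with most of its UMIs (0.598 times), and that of Dkk2 with classes from clusters (0.523 times).

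Macrophage-like cells had enough UMIs of 4 members, of which 0 were higher (1.63% of 8540 genes) and 1 was lower (1.84%) in KPCA.FSTKO_hFSTL3. The lower one was Fzd7, at 28.3 and 14.1 CPM (0.498 times, 0.337 to 0.715), and 4 alternatives gave 0.504 to 0.543 times, on the other side of the rule. Lrp6 (111 and 132 CPM, 1.19 times), Lrp5 (14.9 and 17.5 CPM) and Fzd1 (11.2 and 6.84 CPM, 0.609 times, 0.337 to 1.03) were on neither side. Of the other pathway genes Lef1 (2.67 times) and Ccnd2 (2.16 times) were higher and Ptk7 (0.221 times) lower in cancer-like cells of KPCA.FSTKO_hFSTL3, Nkd2 was lower in fibroblast-like cells (0.336 times), and none passed the rule in macrophage-like cells. These are 2 of 41 (3.20% over all genes), 1 of 41 (7.19%), 1 of 39 (3.30%) and 0 of 25 genes with enough UMIs, so the shares were near or below those over all genes.

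The remaining 18 members had under 100 UMIs, too few for the size rule. UMIs over the filtered cells of both libraries numbered 67 for Wnt16, 64 for Sfrp4, 40 for Fzd9, 34 for Wnt2b and 30 for Wnt7a. Wnt7a UMIs lay in KPCA.FSTKO cancer-like cells (29 of 30), and 47 of the 64 Sfrp4 UMIs were in KPCA.FSTKO_hFSTL3. Under 20 UMIs were counted for Rspo2 (11), Sfrp5 (5), Fzd10 (5), Wnt1 (4), Wnt3a (4), Wnt3 (3), Wnt8b (3), Wif1 (2), Rspo4 (1) and Dkk1 (1), and 0 for Dkk4, Wnt9b and Wnt8a. Apart from Wnt7a, no level in a single class is given for these genes at this depth, which does not show that they are absent.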

How the data were processed

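Single cells of 4 pooled tumors per genotype were measured with a 10x Genomics 3′ kit. The authors aligned the reads to the mm10 (GRCm38) mouse reference with Cell Ranger (3.1.0 per the labels, 7.2.0 in the header of the matrices) and deposited raw UMI counts, not normalized, for 7582 KPCA.FSTKO and 4244 KPCA.FSTKO_hFSTL3 barcodes. These are the cell numbers that the methods give after quality control, but the stated filters (mitochondrial share under 20%, more than 200 and fewer than 8000 genes) still removed barcodes and left 6777 and 4041. The libraries held 168214773 and 80391504 UMIs.

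A cell was given a class when the summed UMIs of that class's markers passed a set number per 10000 UMIs and at least 3 markers were found. Barcodes past several gates were set aside as mixed. The markers came first and the gates were set after the marker sums of these data were seen. The members, the other pathway genes and the lists were chosen with earlier results of these data known. Clusters came from Seurat 5.3.0 in R 4.3.3 (2000 variable genes without the members, 10 principal components, 20 neighbours, resolution 0.8), without integration. Doublets were kept, as no step against them is named in the methods. Scrublet in scanpy 1.11.5 marked 90 and 1 cells.

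For every class and library, a gene's UMIs were added up over cells and set per 1000000 of the class total (CPM). With 1 library per genotype no test was made. A gene counted as higher or lower with at least 100 UMIs over the cells compared and a CPM ratio of at least 2, and 3 counts served as the floor where none was seen. Every member with at least 100 UMIs over both libraries was to be named with its values, one with 20 to 99 with its counts, and one under 20 in a list. Other pathway genes past the size rule were named up to 5 a direction. For shares of cells each cell was thinned to 1000 UMIs.

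The steps were tested on simulated counts. Alternatives changed the filter, the classes, the scaling (TMM factors, for which alone edgeR 4.0.16 was used), the cells summed and the thresholds. Others were chosen after seeing the data: the acinar gate not applied, single clusters, fibroblast-like cells alone, subsets weighted equally, and all those for contractile against mesothelial-marked cells. Promoters were read from a RefSeq table of GRCm38.p6. Sums and intervals were computed with scipy 1.17.1, numpy 2.4.6 and pandas 2.3.3 in Python 3.11.15.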

Additional observations from a re-analysis of the deposited data

Results flagged for a closer look

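Wnt5a, the ligand of the Ror receptors, had a stromal over cancer-like ratio of 0.698 (0.610 to 0.796) in KPCA.FSTKO and of 1.55 (1.18 to 2.01) in KPCA.FSTKO_hFSTL3, so the libraries lay on opposite sides of 1 with both intervals apart from it. The difference between the libraries was not tested, since each is a single sample. With fibroblast-like cells alone the KPCA.FSTKO_hFSTL3 ratio was 1.23 (0.899 to 1.66), which includes 1, and the 5 pericyte-like cells of that library held 20 of the 72 stromal UMIs.

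Member UMIs also lay in barcodes that no comparison used. The filters removed barcodes holding 14346 member UMIs of the KPCA.FSTKO library and 4885 of the KPCA.FSTKO_hFSTL3 library, which is 14.2% in either library. Barcodes past several gates held 3555 and 20984 member UMIs, respectively. Barcodes past no gate held 3997 and 73.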

How the results depend on the processing

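No paired analysis was possible because each genotype has 1 library, and for the same reason no replicate could be left out. Values give the count by the size rule and then the count under each alternative. In stromal over cancer-like cells of KPCA.FSTKO the 14 higher and 4 lower members moved by less than 1.5 times, and the other pathway genes went from 16 to 25 at a ratio of 1.5. In KPCA.FSTKO_hFSTL3 the 8 higher members became 14 with a minimum of 20 UMIs, 4 without the 5% of cells with most UMIs and 20 with the acinar gate not applied. The 5 lower ones became 3 without that gate, and the pathway genes went from 12 to 23 at 1.5. Between genotypes, 0 higher members in cancer-like cells became 1 with every barcode, 3 with 20 UMIs, 3 at 1.5, 2 without the top 5% of cells and 7 without the acinar gate. The 4 lower ones became 8 at 1.5 and 7 without the gate, and 3 pathway genes became 10 at 1.5. In fibroblast-like cells 0 higher became 1 with 20 UMIs, 2 lower became 1 with clusters, 5 at 1.5 and 1 without the top 5%, and 1 pathway gene became 7 at 1.5. In macrophage-like cells 1 lower became 0 with every barcode, 2 with clusters, 2 with mixed cells assigned, 5 with 20 UMIs, 2 at 1.5 and 0 by the mean over cells, and 0 pathway genes became 1 with clusters and 2 at 1.5. For contractile over mesothelial-marked cells 1 lower became 3 with 20 UMIs and 0 without the top 5%. Members highest in cancer-like cells went from 4 to 2 with mixed cells assigned. The share of KPCA.FSTKO fibroblast-like cells with a Wnt4 UMI went from 29.8% to 54.7% at 3000 UMIs and to 71.6% as deposited. Of the called members 2 values reversed, both with the acinar gate not applied: the log2 ratio of Wnt4 between genotypes in cancer-like cells, from -1.57 to 0.73, and that of Dkk2 in stromal over cancer-like cells of KPCA.FSTKO_hFSTL3, from -1.15 to 0.061. The construction of that alternative shows why the class changes, since it adds 3041 barcodes to 230 cells. For the remaining changes the cause was not tested.

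Depth limits members under about 5 CPM, the 49 fibroblast-like and 230 cancer-like cells of KPCA.FSTKO_hFSTL3, and every statement on pericyte-like and endothelial-like cells of that library. Genotype, clone, pool and library cannot be told apart.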

Other observations

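UMIs of some members lay in few cells. The highest number in 1 cell was 116 for Wnt4, 109 for Ror1, 109 for Sfrp1, 95 for Lgr5 and 77 for Sfrp2. In KPCA.FSTKO 10 cells held 40.5% of the 84 Rspo1 UMIs. For the even member Lrp6 they held 1.42%.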
